A study of Mus musculus with 5 samples.

Results

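The numbered Gpr genes and the adhesion G protein-coupled receptor genes were taken by symbol from the deposited exon count table, as every symbol made of Gpr and a number, or beginning with Gprc or Adgr, and Celsr1 to Celsr3, with the older adhesion names Lphn and Bai also searched. The rule found 75 genes among 10855 genes with a symbol, or among 24538 when genes under assembly IDs are counted. RNA was compared between mouse embryonic stem cells lacking the −45 super-enhancer (2 libraries, called deleted 1 and 2) and wildtype embryonic stem cells (3 libraries, called wildtype 1 to 3). Super-enhancers are stretches of DNA with many enhancers side by side, and this one lies in the neighbourhood of the pluripotency gene Nanog. Per the labels, cells were treated for 6 days with ethanol or 4-hydroxytamoxifen, but which library received which is not given, nor are strain, clone, or whether replicates were separate cultures. What the p-values weigh is thus library-to-library spread, possibly technical alone.

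G protein-coupled receptors cross the cell membrane several times and pass outside signals to G proteins, many of which raise or lower cyclic AMP. Adhesion receptors are the subgroup with long extracellular parts that bind neighbouring cells or matrix. Many of these can be cleaved close to the membrane so that a hidden tethered stretch activates the receptor. Most numbered Gpr genes encode orphan receptors, named before a ligand was known, and many are best studied in brain or immune cells.

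Total bin counts were 93574609 and 99134363 in the deleted libraries, against 125184361, 114838600 and 213042746 in wildtype 1, 2 and 3. The 75 receptor genes held 4493 and 4773 of these counts in the deleted libraries, against 4726, 4422 and 9727 in the wildtype libraries. Genes with symbols held 0.328% to 0.375% of each library, since most counts lay under assembly IDs that the table does not pair with symbols. None of 18 pluripotency markers looked for, Nanog and Pou5f1 among them, had a row under its symbol, so neither the labelled cell type nor the deletion was checked by its own genes. RefSeq lists 112 symbols that fit the rule, and the genes outside the 75 were not analysed here. Wildtype 3 differed most within its group. Its median log2 difference from wildtype 1 and 2 was 0.14 in genes of 21 to 40 bins, the size of the long adhesion receptor genes, and −0.07 in genes of 1 to 5 bins.

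Of the 75 receptor genes, 36 had enough counts for a test. Of these, 7 rose and 3 fell in the deleted cells, and 26 did not pass (edgeR quasi-likelihood, Benjamini-Hochberg adjusted p under 0.05 over all tested genes). The higher genes included Adgrb1, Adgrb2, Adgrg3, Gpr85, Gpr155 and Gpr161, and the lower ones were Celsr2, Gpr173 and Gpr20. The 10 called genes made up 27.8% of the tested receptors, while 31.8% of tested symbols and 39.5% of all tested genes passed the same threshold, so the share is near the background. By direction, the 7 and 3 stand beside 18.9% of tested symbols higher and 12.9% lower, and beside 19.9% and 19.6% of all tested genes. The median log2 fold change (deleted minus wildtype) was 0.04 over the tested receptors and 0.07 over tested symbols. Both deleted libraries lay above every wildtype library for 13 of 36 receptors, against 32.8% of tested symbols, and below for 9, against 24.2%. In bulk RNA, fewer cells expressing a gene and less RNA per cell cannot be told apart.

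**Figure D1:**
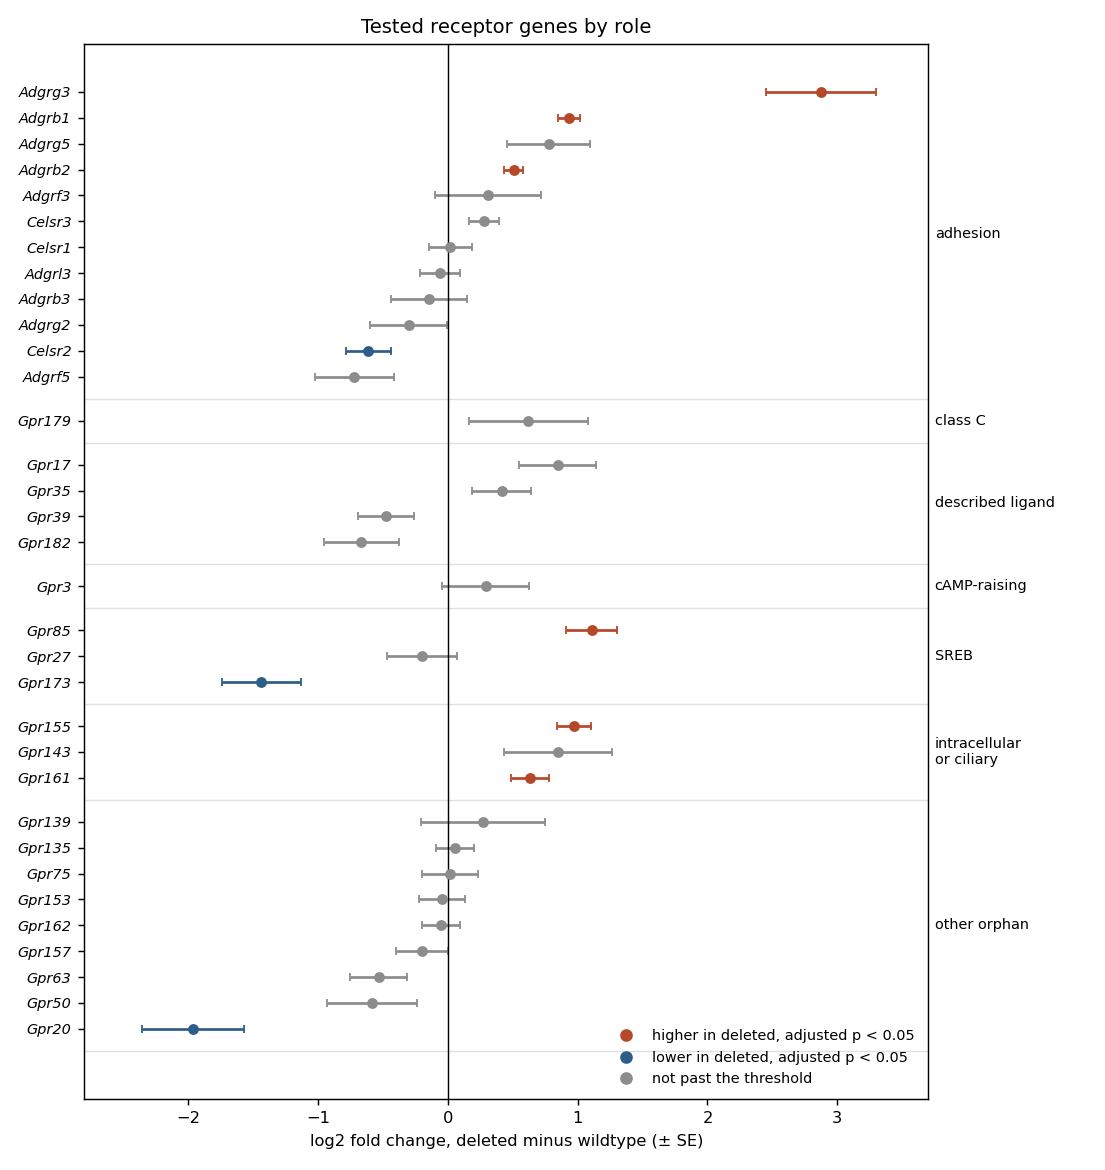
Log2 fold change (deleted minus wildtype) with its standard error for 33 tested receptor genes, grouped by role. The 6 genes past the threshold on the right range from 0.51 (Adgrb2) to 2.87 (Adgrg3), the 3 on the left from −1.96 (Gpr20) to −0.61 (Celsr2), and the 24 grey genes from −0.72 to 0.85.

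The DNA upstream of the starts was described for called receptors with a RefSeq promoter window, taken by smallest p in either direction. Adgrb1, which had the smallest p of the tested receptors, had no such window. Shown are the 250 bases before the annotated start (GRCm38.p6). These windows cover the first adhesion receptor genes by p (Adgrb2 and Adgrg3) and the first other genes (Gpr155 and Gpr85). They lie at chr4:129984620-129984869 (plus strand), chr8:95017442-95017691 (plus strand), chr2:73386481-73386730 (minus strand) and chr6:13839943-13840192 (minus strand). That build differs from the authors' mm9. Capitals mark the GC box GGGCGG and the CCAAT box CCAAT, searched on both strands together with the TATA box TATAAA, which none of the 4 holds. GC box matches may overlap each other, and none of the 3 motifs overlaps another kind here.
Adgrb2: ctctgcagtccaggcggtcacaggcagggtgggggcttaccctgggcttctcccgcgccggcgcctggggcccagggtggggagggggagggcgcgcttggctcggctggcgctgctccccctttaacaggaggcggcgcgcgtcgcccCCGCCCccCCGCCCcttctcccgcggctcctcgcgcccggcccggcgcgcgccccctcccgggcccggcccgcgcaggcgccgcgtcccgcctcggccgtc
Adgrg3: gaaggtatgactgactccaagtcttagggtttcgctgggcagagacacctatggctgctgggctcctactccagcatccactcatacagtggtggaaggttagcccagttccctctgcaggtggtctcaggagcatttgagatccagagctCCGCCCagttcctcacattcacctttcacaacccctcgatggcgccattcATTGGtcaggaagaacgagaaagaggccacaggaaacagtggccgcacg
Gpr155: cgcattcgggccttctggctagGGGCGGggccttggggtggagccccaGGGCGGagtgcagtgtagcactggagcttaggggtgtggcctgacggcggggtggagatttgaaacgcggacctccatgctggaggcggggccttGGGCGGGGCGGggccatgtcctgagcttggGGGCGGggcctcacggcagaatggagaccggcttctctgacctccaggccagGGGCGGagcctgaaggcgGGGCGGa
Gpr85: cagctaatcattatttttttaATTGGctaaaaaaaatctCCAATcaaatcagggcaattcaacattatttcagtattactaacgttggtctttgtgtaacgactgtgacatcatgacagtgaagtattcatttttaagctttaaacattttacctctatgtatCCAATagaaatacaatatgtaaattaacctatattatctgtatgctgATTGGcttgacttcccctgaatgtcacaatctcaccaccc
The 4 windows are unlike each other. Adgrb2 has 81.6% G and C with 35 CpG and 2 GC boxes, and Gpr155 has 70.4% with 17 CpG and 7 GC boxes. Adgrg3 has 55.2% with 7 CpG, 1 GC box and 1 CCAAT box. Gpr85 has 32.0% with 2 CpG, no GC box and 4 CCAAT boxes. Over all 32851 RefSeq windows of this length, 32.7% hold a GC box, 33.8% a CCAAT box and 12.4% a TATA box. Among members, the median CpG count was 9 over 31 windows of 23 tested genes. It was 3 over 30 windows of 28 genes with too few counts, against 6 over all windows. These medians are given as a description of sequence and level with no test.

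Among adhesion receptors, 12 of 20 genes were tested, of which 3 rose, 1 fell and 8 did not pass. The brain angiogenesis inhibitor genes Adgrb1 and Adgrb2 were both higher. Adgrb1, whose protein recognises phosphatidylserine on dying cells, had 7.50 and 7.56 CPM (counts scaled to an equal library total) in the deleted libraries, against 3.83, 3.74 and 4.23 CPM in the wildtype libraries. Both deleted libraries were above every wildtype library, and the log2 fold change with its SE was 0.93 ± 0.09 (edgeR adjusted p = 0.000267), 1.91-fold. Adgrb2, its close relative, had 10.8 and 10.5 CPM in deleted cells, against 7.41, 7.44 and 7.64 CPM in wildtype cells. The groups did not overlap, and the log2 fold change with its SE was 0.51 ± 0.07 (edgeR adjusted p = 0.00133), 1.42-fold. Adgrb3, which binds complement C1q-like proteins, had 15 and 26 counts in the deleted libraries, against 32, 28 and 46 in the wildtype libraries. It did not pass (edgeR adjusted p = 0.724), and its groups overlapped.

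The rise of Adgrb1 ran along the gene. The call was made on the sum of its bins, so their values describe it and are no further support. This holds for the other called genes too. Shares of bins over all symbols include genes that were not called. All 31 of its exon bins had at least 10 counts over the libraries, the mean was higher in deleted cells in 31 of them, and both deleted libraries exceeded every wildtype library in 27, against 20.6% of such bins over all symbols. In its most counted bin alone, bin 31, the gene stood at 0.964 and 0.767 CPM in deleted cells and at 0.587, 0.604 and 0.551 CPM in wildtype cells. Adgrb2 had 31 bins of that depth, 30 with a higher mean in deleted cells and 21 with no overlap. Its most counted bin by itself missed the threshold (0.34 on the log2 scale; edgeR adjusted p = 0.0886). Adgrb1 made up 40.6% and 41.3% of the counts of the 3 Adgrb genes in the deleted libraries, with 95% Wilson intervals of 38.3% to 42.9% and 39.0% to 43.6%. In the wildtype libraries its share was 33.3%, 32.7% and 35.0%, with intervals of 30.9% to 35.8%, 30.2% to 35.3% and 33.2% to 36.9%. These intervals cover counting error only, and they take each bin count as a separate read. A read spanning several bins is counted in each, so they are too narrow even for counting error. The same holds for the intervals of the other families below. An exact permutation test, made two-sided by doubling the one-sided p, gave p = 0.2, the smallest this test can give here. It stayed so after adjustment over the 3 receptor families compared in this way. The families were picked after their values were seen, from genes already called in these libraries. The shares and their p-values are thus a description and no further support.

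The cadherin-type receptors Celsr1, Celsr2 and Celsr3, which orient cells within a sheet in planar cell polarity, differed among themselves. Celsr2 had 1.85 and 2.37 CPM in deleted cells, against 2.92, 2.89 and 3.83 CPM in wildtype cells. Both deleted libraries were below every wildtype library, and the log2 fold change with its SE was −0.61 ± 0.17 (edgeR adjusted p = 0.0238). The call ended without deleted 1 (log2 fold change −0.45; edgeR adjusted p = 0.176) and when its most counted bin was used by itself (−0.30; 0.246). Of its 35 bins, 12 were below every wildtype library in both deleted libraries, against 16.4% of bins over all symbols, and 0 were above. The mean was higher in deleted cells in 4 of the 35. Celsr1 had 12.2 and 11.1 CPM in deleted cells, against 9.84, 10.01 and 14.4 CPM in wildtype cells. Wildtype 3 was the highest and the groups overlapped (log2 fold change 0.02 ± 0.17; edgeR adjusted p = 0.939). Without wildtype 3, Celsr1 was higher in the deleted cells (0.22; edgeR adjusted p = 0.0261). Celsr3 had a mean of 2.19 ± 0.0985 CPM over the deleted libraries (SD, n = 2) and of 1.80 ± 0.135 CPM over the wildtype ones (SD, n = 3). It missed the threshold (0.28 on the log2 scale; edgeR adjusted p = 0.0910). It passed without wildtype 3 (0.33; edgeR adjusted p = 0.0474) and when its most counted bin stood for the gene (0.72; edgeR adjusted p = 0.0250). The 3 genes have 35 bins each, so shares among them compare genes of like bin number. Celsr2 made up 11.5% and 15.1% of their counts in deleted 1 and 2, with 95% Wilson intervals of 9.98% to 13.2% and 13.4% to 17.0%. It made up 20.2%, 19.6% and 19.02% in wildtype 1, 2 and 3, with intervals of 18.4% to 22.2%, 17.8% to 21.6% and 17.9% to 20.2%. The groups did not overlap (exact permutation p = 0.2, the smallest this test can give), which adds no support to the call.

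**Figure D2:**
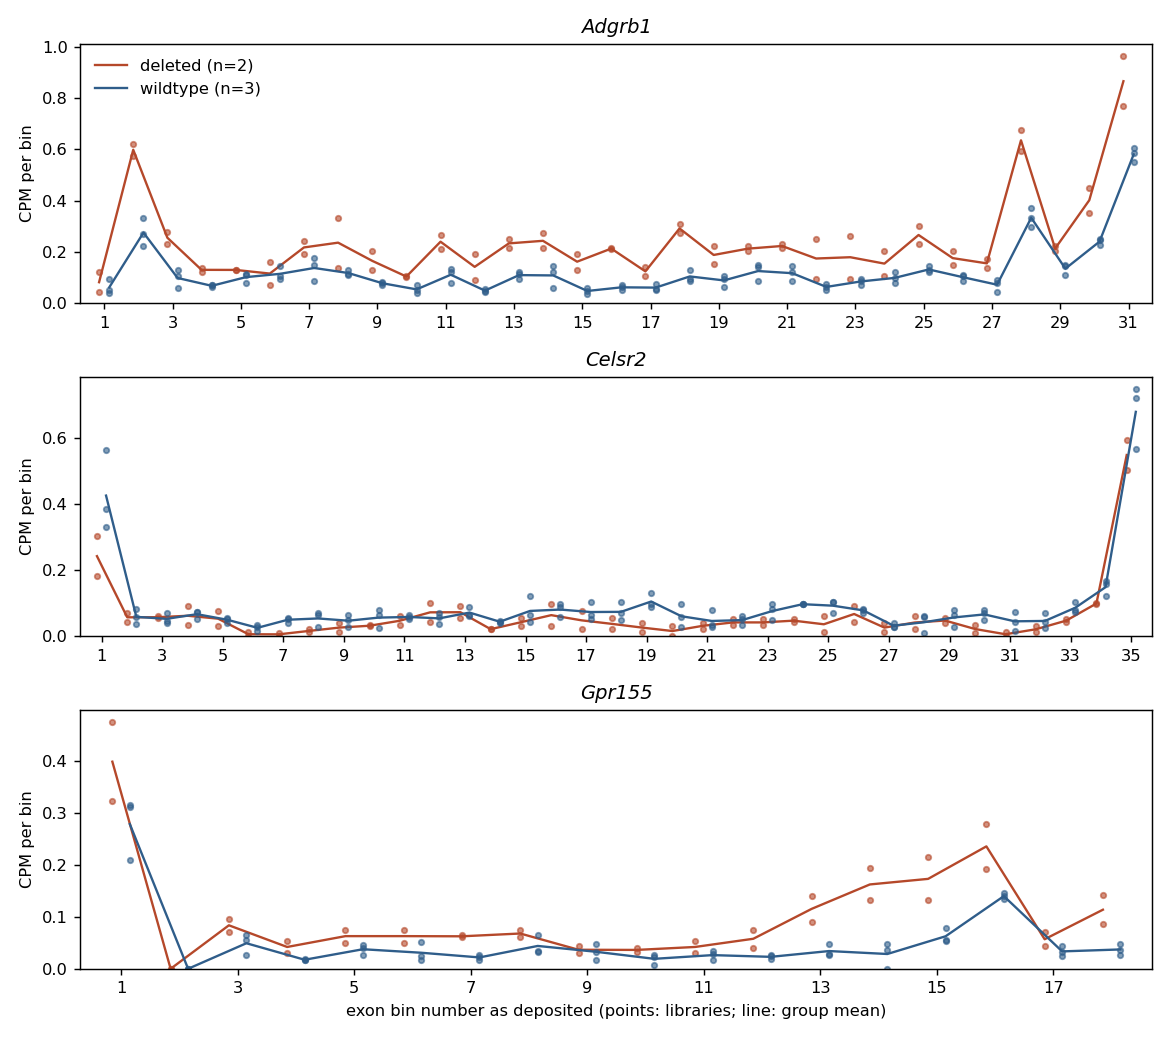
CPM in each exon bin, by bin number as deposited, for Adgrb1, Celsr2 and Gpr155, with points for libraries and lines for the means of deleted (n = 2) and wildtype (n = 3) cells. The deleted line lies above the wildtype line in all 31 bins of Adgrb1, and for Celsr2 it lies above in 4 of 35 bins, with 12 bins in which both deleted libraries are below every wildtype library.

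Adgrg3, a receptor gene of granulocytes, had the largest fold change of the called receptors. It had 25 and 26 counts in the deleted libraries, against 2, 7 and 7 counts in the wildtype libraries. In CPM this was 0.268 and 0.262 in deleted cells, against 0.0161, 0.0613 and 0.0324 in wildtype cells, with no overlap. The log2 fold change with its SE was 2.87 ± 0.42 (edgeR adjusted p = 0.00160), and it lay between 2.58 and 3.29 over 13 alternative settings. Adgrg3 passed the low-count filter through the deleted libraries alone, so it was tested only because it was higher there. It lies on chromosome 8, where the median log2 fold change of 159 tested symbols was 0.52 and 42.8% were higher in deleted cells, against 0.05 and 17.8% on the other chromosomes. Adgrg5, a related receptor gene on chromosome 8, had 15 and 16 counts in deleted cells and 11, 9 and 23 in wildtype cells. Its CPM did not overlap between groups, at 0.161 and 0.162 in deleted cells and 0.0884, 0.0788 and 0.106 in wildtype cells, but it missed the threshold (0.78 ± 0.32 on the log2 scale; edgeR adjusted p = 0.0922). The part of chromosome 8 as a whole in these values was not tested. Without chromosome 8, 6 receptors were higher and 3 lower of 34 tested.

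**Figure D3:**
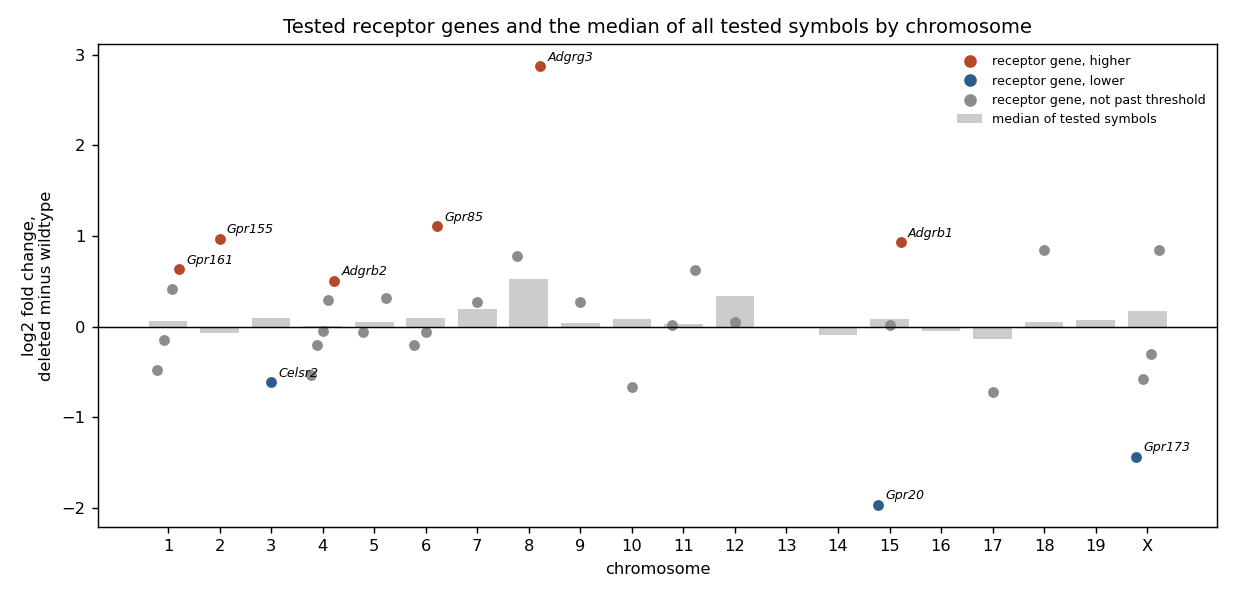
Log2 fold change (deleted minus wildtype) of 33 tested receptor genes by chromosome (points), with grey bars for the median of all tested symbols on that chromosome. Chromosome 8 has the highest median, 0.52, chromosome 12 follows at 0.34, and the other medians lie between −0.13 and 0.20.

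The other tested adhesion receptors did not pass. Adgrf5, needed for surfactant balance in the lung, had 0.236 and 0.262 CPM in deleted cells, against 0.289, 0.394 and 0.518 CPM in wildtype cells. Both deleted libraries were lowest (log2 fold change −0.72; edgeR adjusted p = 0.0980), and the gene passed without wildtype 1 (−0.91; edgeR adjusted p = 0.0369). Adgrl3, a latrophilin that binds teneurins and FLRT proteins, had a mean of 0.938 ± 0.115 CPM over the deleted libraries (SD, n = 2) and of 0.974 ± 0.0830 CPM over the wildtype ones (SD, n = 3), with overlap. Adgrg2, known for fluid uptake in the epididymal ducts, had 0.214 and 0.444 CPM in deleted cells, against 0.378, 0.438 and 0.412 CPM in wildtype cells. Adgrf3 had 0.171 and 0.262 CPM in deleted cells, against 0.0965, 0.245 and 0.185 CPM in wildtype cells. Groups overlapped for both (edgeR adjusted p = 0.452 for Adgrg2 and 0.581 for Adgrf3).

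The SREB receptors Gpr27, Gpr85 and Gpr173 are closely related orphan receptors named for their strong conservation and expression in brain, and they did not move together. Gpr85 had 0.686 and 0.555 CPM in deleted cells, against 0.305, 0.254 and 0.296 CPM in wildtype cells. Both deleted libraries were above every wildtype library, and the log2 fold change with its SE was 1.11 ± 0.20 (edgeR adjusted p = 0.00371), 2.16-fold. Gpr173, on the X chromosome, had 0.107 and 0.0909 CPM in deleted cells, against 0.257, 0.315 and 0.245 CPM in wildtype cells. The groups did not overlap, in the other direction, and the log2 fold change with its SE was −1.44 ± 0.30 (edgeR adjusted p = 0.00783). This rests on 10 and 9 counts in deleted cells and 32, 36 and 53 in wildtype cells, and the call ended without deleted 2 (−1.34; edgeR adjusted p = 0.0606). Gpr27 had 0.300 and 0.232 CPM in deleted cells, against 0.273, 0.385 and 0.273 CPM in wildtype cells, with overlap (edgeR adjusted p = 0.588). Gpr85 made up 62.7% and 63.2% of the counts of the 3 genes in the deleted libraries (95% Wilson intervals 53.1% to 71.5% and 52.7% to 72.6%). Its share was 36.5%, 26.6% and 36.4% in the wildtype libraries (27.9% to 46.1%, 19.2% to 35.6% and 29.6% to 43.7%). The exact permutation p, doubled in the same way, was again 0.2, the smallest this test can give, and adds no support.

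Of the genes whose proteins act inside the cell or on the cilium, Gpr155 and Gpr161 were higher. Gpr155, a cholesterol sensor of the lysosome, had 1.92 and 1.70 CPM in deleted cells, against 0.892, 0.858 and 0.995 CPM in wildtype cells. There was no overlap, and the log2 fold change with its SE was 0.97 ± 0.13 (edgeR adjusted p = 0.00116), 1.96-fold. Of its 18 bins, 17 had at least 10 counts, 17 had a higher mean in deleted cells and 12 had no overlap. Of single bins looked at after their values were seen, bin 1, the most counted, had 0.321 and 0.474 CPM in deleted cells and 0.209, 0.315 and 0.310 CPM in wildtype cells, and by itself it missed the threshold (0.53 on the log2 scale; edgeR adjusted p = 0.142). Bin 14 had 18 and 13 counts in deleted cells and 6, 0 and 8 in wildtype cells. Gpr161, which sits in the primary cilium and restrains Hedgehog signalling through cyclic AMP, had 1.94 and 1.67 CPM in deleted cells, against 1.198, 0.998 and 1.27 CPM in wildtype cells. Its groups did not overlap either, 4 of its 5 bins with at least 10 counts lay above every wildtype library, and the gene's log2 fold change with its SE was 0.63 ± 0.15 (edgeR adjusted p = 0.0116). The call ended without deleted 1 (0.52; edgeR adjusted p = 0.103) and with its most counted bin by itself (0.41; edgeR adjusted p = 0.0848). Gpr143, a melanosome receptor whose human counterpart is mutated in ocular albinism, had 13 and 9 counts in deleted cells and 6, 7 and 16 in wildtype cells. It did not pass (edgeR adjusted p = 0.144) and was tested only through the deleted libraries.

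Among receptors with a described ligand, 5 of 15 genes were tested. Gpr17, a regulator of oligodendrocyte maturation, had 16 and 19 counts in deleted cells and 12, 11 and 23 in wildtype cells. In CPM it was higher in both deleted libraries, at 0.171 and 0.192, against 0.0965, 0.0963 and 0.106 in the wildtype libraries (log2 fold change 0.85 ± 0.30). It missed the threshold (edgeR adjusted p = 0.0550) and passed with limma-voom (0.0466). Gpr35, a kynurenic acid receptor, had a mean of 0.297 ± 0.0199 CPM over the deleted libraries (SD, n = 2) and of 0.222 ± 0.0136 CPM over the wildtype ones (SD, n = 3; edgeR adjusted p = 0.184). The zinc receptor Gpr39 had a mean of 0.234 ± 0.00254 CPM over the deleted libraries (SD, n = 2) and of 0.326 ± 0.0140 CPM over the wildtype ones (SD, n = 3; edgeR adjusted p = 0.119). This rests on 22 and 23 counts in deleted cells and 39, 39 and 70 in wildtype cells. An SD of 2 libraries can fall below the counting error. The chemokine scavenger Gpr182 had a mean of 0.211 ± 0.0866 CPM over the deleted libraries (SD, n = 2) and of 0.337 ± 0.0365 CPM over the wildtype ones (SD, n = 3; edgeR adjusted p = 0.106). None of these 3 had overlapping groups, with Gpr35 above and Gpr39 and Gpr182 below. Such separation was common, in 32.8% of tested symbols above and 24.2% below.

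Of the remaining orphan receptors, 10 of 26 were tested and Gpr20 was called. Gpr20 had 11 and 5 counts in deleted cells, against 48, 29 and 73 counts in wildtype cells. This was 0.118 and 0.0505 CPM in deleted cells, against 0.386, 0.254 and 0.338 CPM in wildtype cells, with no overlap. The log2 fold change with its SE was −1.96 ± 0.39 (edgeR adjusted p = 0.00607). The gene passed the low-count filter through the wildtype libraries alone, and the call ended without deleted 2 (−1.49; edgeR adjusted p = 0.0545). Gpr20 lies on chromosome 15, as do Adgrb1 and Celsr1. Gpr63 had 0.493 and 0.474 CPM in deleted cells, against 0.627, 0.884 and 0.615 CPM in wildtype cells. Both deleted libraries were lowest (log2 fold change −0.53; edgeR adjusted p = 0.0907), and it passed without wildtype 3 (−0.64; edgeR adjusted p = 0.0368). Gpr50, related to the melatonin receptors, had a mean of 0.115 ± 0.0196 CPM over the deleted libraries (SD, n = 2) and of 0.169 ± 0.0353 CPM over the wildtype ones (SD, n = 3; edgeR adjusted p = 0.219).

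Several orphan receptors did not pass and had overlapping groups. Gpr135 had a mean of 1.03 ± 0.111 CPM over the deleted libraries (SD, n = 2) and of 1.001 ± 0.0778 CPM over the wildtype ones (SD, n = 3). Gpr162 had a mean of 1.12 ± 0.166 CPM over the deleted libraries (SD, n = 2) and of 1.17 ± 0.0910 CPM over the wildtype ones (SD, n = 3). Groups overlapped in both, as in Gpr153, Gpr157, Gpr75 and Gpr139. The log2 fold changes with SE of Gpr153, Gpr157, Gpr75 and Gpr139 were −0.04 ± 0.18, −0.20 ± 0.20, 0.02 ± 0.22 and 0.27 ± 0.48 (edgeR adjusted p = 0.864, 0.471, 0.956 and 0.686). With errors of this size, not passing does not show equal levels. The oocyte receptor Gpr3, which keeps cyclic AMP high without a ligand and holds meiotic arrest, was the 1 tested of 3 such genes. It had a mean of 0.279 ± 0.0764 CPM over the deleted libraries (SD, n = 2) and of 0.224 ± 0.0692 CPM over the wildtype ones (SD, n = 3; edgeR adjusted p = 0.531). Of the class C receptors, Gpr179 of retinal bipolar cells had 8 and 19 counts in deleted and 8, 9 and 25 in wildtype cells (edgeR adjusted p = 0.322). Gpr179 and Gpr139 passed the low-count filter only by 1 library of each group.

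**Figure D4:**
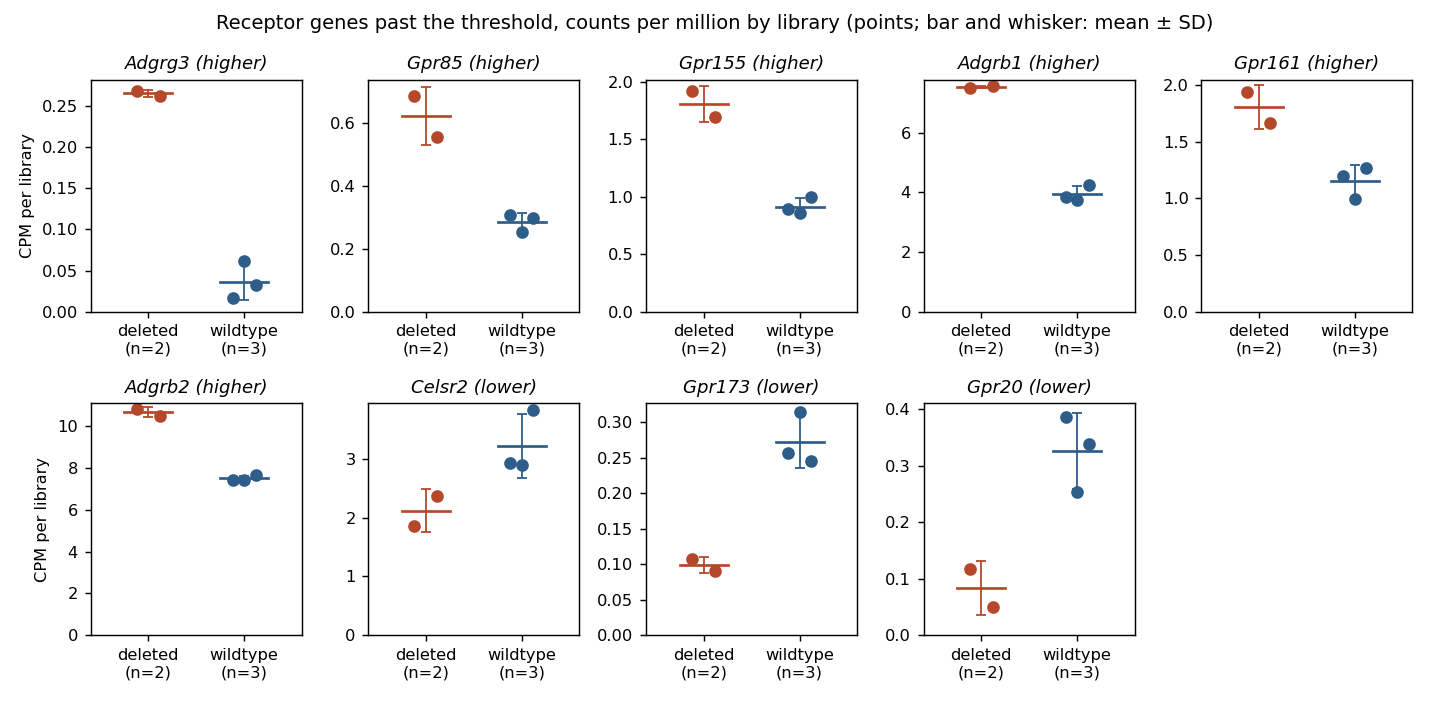
CPM per library of 9 receptor genes past the threshold, deleted (n = 2) left of wildtype (n = 3), with bars and whiskers for mean ± SD and a separate axis from 0 for each gene. In every panel the deleted and wildtype points do not overlap; levels run from 0.0161 CPM (Adgrg3 in wildtype 1) to 10.8 CPM (Adgrb2 in deleted 1).

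Summed over the 75 genes, receptor RNA stood at 48.1 and 48.2 CPM in the deleted libraries, against 38.0, 38.7 and 45.0 CPM in the wildtype libraries. Celsr1, Adgrb2 and Adgrb1 together held 63.3% and 60.4% of these receptor counts in deleted cells and 55.5%, 54.7% and 58.3% in wildtype cells. Without these 3 genes the sums were 17.7 and 19.1 CPM in deleted cells and 16.9, 17.5 and 18.8 CPM in wildtype cells, which overlapped. Per kilobase of annotated exon (GENCODE vM21 lengths, which differ from the authors' bins), Adgrb2 had 1.64 CPM in deleted and 1.16 CPM in wildtype cells and Celsr1 1.05 and 1.04 CPM. On that scale Adgrb1 had 1.04 CPM in deleted and 0.545 CPM in wildtype cells. Adgrb3 had 0.0114 CPM per kilobase in deleted and 0.0128 CPM per kilobase in wildtype cells.

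Too few counts for a test were found in 39 receptor genes, with at most 21 counts in any library. Of these, 34 stayed under 10 counts in every library. Adgrl4, Gpr119, Gpr31b, Gpr65 and Gpr33 had 0 counts in every library, which allows up to 0.0141 CPM in the deepest and 0.0321 CPM in the shallowest library (3 counts each). Another 9 had 0 counts in both deleted libraries and some in wildtype, among them Adgrf2 with 2, 3 and 10 counts and Adgrf4 with 0, 2 and 11 counts in wildtype 1, 2 and 3. The reverse held for Gpr174 and Gpr171, with 1 count each. Adgre1, which encodes the macrophage antigen F4/80, had 0 counts in both deleted libraries, against 4, 0 and 0 in the wildtype libraries. Adgra1 had 1 and 4 counts in deleted cells, against 7, 3 and 21 in wildtype cells. Gpr12, a relative of Gpr3, had 8 and 2 counts in deleted cells, against 12, 6 and 10 in wildtype cells, and Gpr25 had 13 and 4, against 4, 6 and 18. The others included Adgre4, Adgrf1, Adgrg7, Gpr158, Gprc5d, Gprc6a, Gpr132, Gpr142, Gpr15, Gpr55, Gpr84, Gpr6, Gpr101, Gpr141, Gpr149, Gpr151, Gpr152, Gpr165, Gpr176, Gpr26, Gpr37, Gpr45, Gpr52 and Gpr61. Differences in these genes could not be tested at the counts held under their symbols. Reads lying under assembly IDs, if any, are not seen in these values. The CPM limits for the genes at 0 hold for the rows under their symbols.

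Exon usage, meaning how a gene divides its counts among bins, could be tested in 11 receptor genes and 129 bins. No gene or bin passed (edgeR diffSpliceDGE, Simes adjusted p of at least 0.508), while 0.126% of tested symbols and 2.76% of all tested genes did. Adgrl3 and Gpr155 had unadjusted p under 0.05. Gpr155 had its smallest bin p in bin 14, which did not pass after adjustment (edgeR adjusted p = 0.662).

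Among the signalling partners of the receptors, 3 of 6 tested G protein subunit genes were higher, 0 were lower and 3 did not pass. Gng11, a gamma subunit gene, had a mean of 0.655 ± 0.00172 CPM over the deleted libraries (SD, n = 2) and of 0.239 ± 0.0329 CPM over the wildtype ones (SD, n = 3), a log2 fold change of 1.43 ± 0.19 (edgeR adjusted p = 0.00114). The inhibitory alpha subunit genes Gnao1, on chromosome 8, and Gnaz had 0.50 ± 0.12 and 0.81 ± 0.20. Their edgeR adjusted p-values were 0.0145 and 0.0146, but 0.111 and 0.0569 without deleted 1 and 0.0537 and 0.119 without deleted 2, and Gnao1 also missed the threshold with its most counted bin (0.0525). Of 9 receptor kinase, arrestin and RGS genes, 1 was higher and 2 lower. The receptor kinase gene Adrbk2 had −0.81 ± 0.11 (edgeR adjusted p = 0.00119), and the RGS genes Rgs9 and Rgs16 had 0.79 ± 0.19 and −0.62 ± 0.20. Leaving out either deleted library ended the Rgs9 call (edgeR adjusted p = 0.0606 for deleted 1 left out, 0.116 for deleted 2), and with only its most counted bin Rgs9 had 0.19 (edgeR adjusted p = 0.628). The Rgs16 call ended without deleted 1, deleted 2 or wildtype 2 (edgeR adjusted p = 0.217, 0.0842 and 0.0916), with its most counted bin (0.0773) and with limma-voom (0.0575).

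Of 11 adenylyl cyclase and phosphodiesterase genes, which make and break down cyclic AMP, 1 was higher and 3 lower. The cyclase gene Adcy7, on chromosome 8, had a mean of 4.63 ± 0.355 CPM over the deleted libraries (SD, n = 2) and of 2.46 ± 0.215 CPM over the wildtype ones (SD, n = 3), a log2 fold change of 0.91 ± 0.11 (edgeR adjusted p = 0.000656). The cyclase gene Adcy6 had −0.996 ± 0.164, and the phosphodiesterase genes Pde10a and Pde3a had −1.38 ± 0.21 and −1.45 ± 0.24 (edgeR adjusted p = 0.00261, 0.00199 and 0.00264). Of 10 tested adhesion receptor ligand genes, Tenm1, a teneurin that latrophilins bind, was lower at −1.47 ± 0.27 (edgeR adjusted p = 0.00403) and 9 did not pass. Flrt2, another latrophilin ligand gene, had −0.02 ± 0.16 (edgeR adjusted p = 0.951).

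Of 5 planar cell polarity genes, 1 was higher and 2 lower. Prickle1, a core polarity gene, had 0.48 ± 0.10 (edgeR adjusted p = 0.00892, and 0.0883 without deleted 2). The ligand gene Wnt5a and the gene of its receptor Ror1 had −1.05 ± 0.21 and −0.73 ± 0.20 (edgeR adjusted p = 0.00591 and 0.0205). The Wnt5a call ended without deleted 1 (edgeR adjusted p = 0.0589), and the Ror1 call without deleted 1, deleted 2 or wildtype 2 (0.109, 0.0895 and 0.0512) and with DESeq2 (adjusted p = 0.0714). Around Gpr161, 7 Hedgehog and ciliary genes were tested, Gpr161 included, of which 2 rose, 2 fell and 3 did not pass. Hhip, which encodes a Hedgehog-binding inhibitor and lies on chromosome 8, had 1.33 ± 0.13 (edgeR adjusted p = 0.000304). The co-receptor genes Boc and Cdon had −0.58 ± 0.14 and −0.34 ± 0.11 (edgeR adjusted p = 0.0133 and 0.0401). The Boc call ended without deleted 1 (edgeR adjusted p = 0.107) and with its most counted bin (−1.17 on the log2 scale, 0.0664). The Cdon call ended without deleted 1, deleted 2 or wildtype 2 (edgeR adjusted p = 0.128, 0.187 and 0.106) and with its most counted bin (0.0897). Over tested symbols 31.8% passed, the share against which these list counts are to be read.

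Markers of other cells are given here beside the 18.9% of tested symbols that were higher and the 12.9% that were lower. All 11 tested genes of the two-cell-like list, chosen with their rise already known, were higher, led by Zscan4c (log2 fold change 2.54), Zscan4b (2.33), Zscan4a (2.59) and Usp17lb (3.23), and the summed level of its 15 genes with rows was 17.2 to 17.6 CPM in deleted and 2.97 to 3.26 CPM in wildtype cells. Of 8 tested fibroblast markers 5 were higher and 0 lower, with a summed level of 14.3 to 14.4 CPM in deleted and 10.1 to 13.2 CPM in wildtype cells over 13 genes. Those leading it were Col1a2 (0.92 on the log2 scale), Pdgfrb (0.49), Col6a1 (2.09) and Col5a2 (0.75), each of which missed the threshold without at least 1 of the deleted libraries (edgeR adjusted p of 0.0634 to 0.183). Col6a1 had 1.34 without deleted 2. Pdgfrb also missed the threshold with its most counted bin (edgeR adjusted p = 0.0765), and Col5a2 without wildtype 1 or wildtype 2 (0.0698 and 0.0626). Col1a1, Fbn1 and Twist1 did not pass, at 0.18, 0.15 and −0.17 on the log2 scale. Fbn1 held the largest part of the summed level, with means of 6.17 CPM in deleted and 5.53 CPM in wildtype cells. Col3a1, Dcn, Lum, Postn and Twist2 had too few counts for a test, with means of at most 0.0494 CPM. Of 8 primitive endoderm markers 3 were lower and 0 higher, with Cubn at −2.07, Sox7 at −0.89 and Pdgfra at −1.02. Gata4, Gata6, Sox17, Foxa2 and Dab2 did not pass, at −0.02, −0.24, −0.13, 0.26 and 0.10. The summed level was 5.20 to 6.47 CPM in deleted and 7.91 to 9.07 CPM in wildtype cells over 9 genes. Its gap lay mainly in Cubn (means 0.442 CPM in deleted and 1.87 CPM in wildtype cells) and Sox7 (1.25 and 2.32 CPM). Pdgfra did not pass without deleted 1 (edgeR adjusted p = 0.0692), nor Cubn with its most counted bin by itself (−0.80 on the log2 scale, 0.172). Of 5 neural markers 1 was higher and 1 lower, at 8.38 to 9.20 CPM in deleted and 6.86 to 9.86 CPM in wildtype cells over 6 genes, with Elavl3 at 0.80 and Rbfox3 at −0.73, the second lost without deleted 1 or deleted 2 (edgeR adjusted p = 0.0984 and 0.112) or with its most counted bin by itself (−0.17 on the log2 scale, 0.602). Of 2 macrophage markers 1, Itgam, was lower (−0.52, edgeR adjusted p = 0.00450). Its call ended without deleted 1 (−0.46) and with its most counted bin (edgeR adjusted p = 0.119). The list stood at 2.83 to 3.16 CPM in deleted and 4.10 to 4.37 CPM in wildtype cells over 10 genes. Nearly all of this was Itgam, with means of 2.80 CPM in deleted and 4.01 CPM in wildtype cells. Mpeg1 had means of 0.149 and 0.110 CPM. The markers with too few counts, Csf1r and Ptprc among them, had means of at most 0.0262 CPM. None of 7 endothelial markers passed with edgeR (unadjusted p is under 0.05 for Kdr and Cdh5), at 10.8 to 11.6 CPM in deleted and 10.5 to 13.9 CPM in wildtype cells over 8 genes. Of all these markers with rows, Emcn of endothelium had 0 counts in every library. The part of these cell types in the receptor values was not tested.

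**Figure D5:**
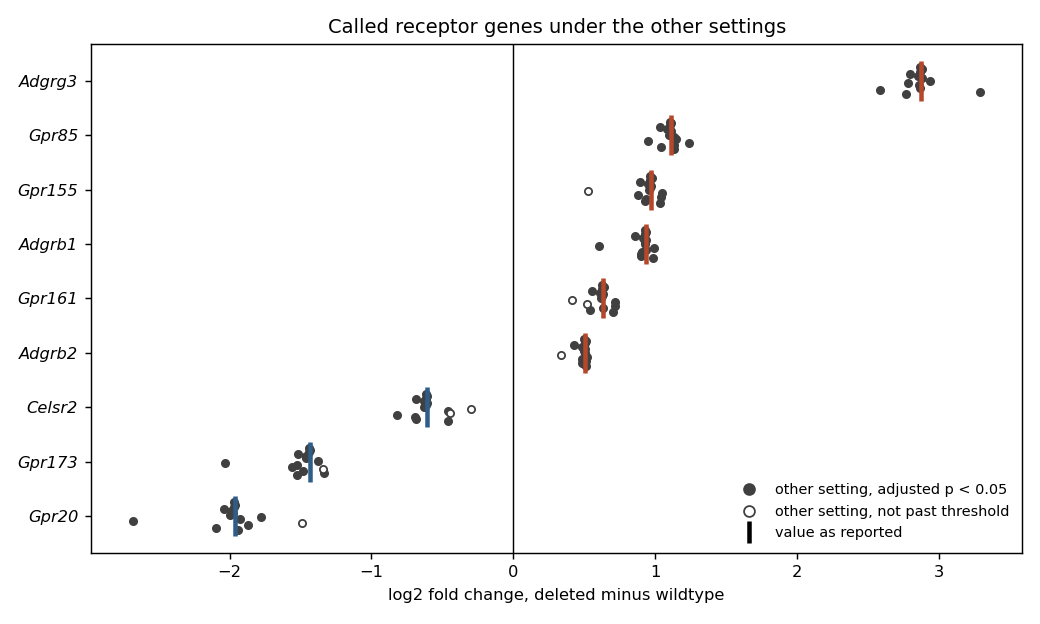
Log2 fold change (deleted minus wildtype) of 9 called receptor genes under the other normalizations, filters, tools and left-out libraries (points, open where not past the threshold), with a vertical bar at the value as reported. No point crosses 0. Adgrb1, Adgrg3 and Gpr85 have filled points only, with Adgrb1 between 0.61 and 0.99. Adgrg3 passed the low-count filter through the deleted libraries alone.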

How the data were processed

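Polyadenylated RNA was sequenced from 2 deleted and 3 wildtype libraries, prepared per the labels with NEBNext Ultra. The design text counts 3 replicates of each condition, and the further deletion library was not analysed here. The authors deposited raw read counts for 243771 exon bins. The submitters' processing notes name STAR, without its version, and mm9. Bin counter, annotation and strand setting: not given in the sources used here. A read spanning several bins is counted in each, and reads shared with overlapping or antisense genes or with an assembly ID cannot be told apart.

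Here bin counts were summed per gene, leaving out 56 spike-in names. Genes were kept by filterByExpr (minimum count 10, 0.0871 CPM here), scaled by TMM, and fitted in R 4.3.3 with edgeR 4.0.16 (quasi-likelihood, on limma 3.58.1), with Benjamini-Hochberg adjusted p under 0.05 as the threshold. SE is the log2 fold change divided by the square root of F. One count was worth 0.00469 to 0.0107 CPM. Libraries of a group differed by chi-square per degree of freedom of 9.96 to 93.4, so none were merged. Exon usage was tested with diffSpliceDGE. Both tests were tried on simulated data, drawn only for better-counted genes and with each bin drawn independently. That trial does not cover genes of few counts or reads counted in several bins. Chromosomes came from RefSeq (GRCm38.p6) by symbol for all 75 genes, and promoter windows for 51. Tested members are named, except some that are not reported here and are left out of the plots, while counts over the members include them. Of each context list up to 4 called genes are named by p. Flrt2, the named markers that did not pass or were not tested, the family shares and the single bins were picked after their values were seen. The members and lists were chosen with earlier results of these data known. Alternatives covered scaling, filters, limma-voom, DESeq2 1.42.0, each gene's most counted bin, the replicate number as a block and leaving out each library.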

Additional observations from a re-analysis of the deposited data

How the results depend on the processing

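The call of Adgrb1, Adgrg3 and Gpr85 held in every alternative that tested them (15, 13 and 15), and no called receptor changed direction. Adgrg3 passed the low-count filter through the deleted libraries alone, so its hold over these settings is no further support for its call. Of higher receptors there were 7, and 4 in the most counted bin alone. Of lower receptors there were 3, against 5 with TMM on symbols alone, where Adgrf5 and Gpr63 passed, and 1 with at least 10 counts in every library, where Gpr20 and Gpr173 had too few counts to be tested. Leaving out single libraries gave 6 to 9 higher and 1 to 4 lower receptors, with Gpr20 and Gpr173 lost without deleted 2. It gave 22 (without deleted 1) to 46 called genes in the context lists, against 40, a check added after the data were seen. No receptor's exon usage passed in the 7 alternatives run for it (stricter bin counts, the replicate block and each library left out). With the replicate block, 9 receptors were higher and 4 lower. The numbers were not taken as pairs, since deviations correlated at 0.13 for replicate 1 and −0.15 for replicate 2, and the block leaves wildtype 3 without a partner.

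Among receptors that did not pass, 12 changed sign in some alternative. With TMM on symbols alone, the log2 fold changes of Celsr1, Gpr135 and Gpr75 were −0.0535, −0.0213 and −0.0578. With no low-count filter, Celsr1 and Gpr75 had −0.00355 and −0.00417. With the replicate block, Adgrl3, Gpr135 and Gpr75 had 0.0161, −0.0135 and −0.0194. In the most counted bin, Gpr162 had 0.084. Leaving out single libraries gave ranges of −0.57 to 0.15 for Adgrb3, −0.0533 to 0.58 for Adgrf3, −0.95 to 0.12 for Adgrg2, −0.21 to 0.0563 for Adgrl3, −0.0942 to 0.22 for Celsr1, −0.0986 to 1.07 for Gpr179, −0.043 to 0.54 for Gpr3, −0.0806 to 0.16 for Gpr135, −0.37 to 0.69 for Gpr139, −0.33 to 0.17 for Gpr153, −0.23 to 0.0857 for Gpr162 and −0.25 to 0.23 for Gpr75. The cause was not tested.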
